A study of Mus musculus with 6 samples.

Results

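The genes described here encode the kainate receptor, 1 of the ionotropic glutamate receptor classes, and its auxiliary proteins: the 5 subunit genes Grik1 to Grik5 and the 2 NETO genes, Neto1 and Neto2. They were chosen by name, with earlier results of these data known. All 7 were measured, each by a single probe set whose annotation names that gene alone, among 22180 genes represented on the arrays. The samples were hippocampi of male Trpc4 knock out mice and Trpc4 wild type mice on a C57BL/6J strain background at P56 (postnatal day 56). Each genotype had 3 samples, and each sample its own Affymetrix array. The product of Trpc4 is a cation channel opened downstream of receptors. The labels state neither how the allele was made nor which exons it removes, and they do not say whether each sample is a separate animal. The p-values below therefore rest on sample-to-sample spread that could be partly technical.

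Kainate receptors are tetramers. GluK1, GluK2 and GluK3, the products of Grik1, Grik2 and Grik3, can form channels alone or with each other. GluK4 and GluK5, from Grik4 and Grik5, bind glutamate with high affinity and need a partner of the first kind to work as a channel. NETO1 and NETO2 are transmembrane proteins that associate with the channel and slow its kinetics. In the hippocampus these receptors are best known from the mossy fibre synapse, where axons of dentate granule cells meet CA3 pyramidal cells. There they carry a slow postsynaptic current and modulate glutamate release, and they also act in interneurons.

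All signals are log2 values made by RMA, an array method meant to bring the distributions of the arrays together. The deposited distributions were close but not identical. A difference is the knockout mean minus the wild-type mean on that scale. Array medians lay between 4.73 and 4.75, and pairs of arrays correlated at 0.985 to 0.988 (Pearson's r over probe sets). The Trpc4 signal itself was 7.39, 7.55 and 7.31 in knockout replicates 1 to 3, against 8.06, 8.23 and 8.06 in wild-type replicates 1 to 3. The knockout signal was thus 61.5% of the wild-type signal, a difference of -0.70 (limma 95% interval -0.92 to -0.48) with groups that did not overlap. The limma p was 8.9e-05 before adjustment and 0.738 after it over all genes, so Trpc4 itself was not called. The Trpc4 probe set is a check of genotype only as far as it lies in the deleted part. Of pan-neuronal marker genes, 8 of 8 were above the median of all values (4.74) in every sample. The same held for 13 of 13 CA3 markers, and for 13 of 14 dentate granule cell markers. Markers of the thalamus, striatum and cortex were also above it in every sample for 10 of 10 genes, several of which hippocampal cells express too. By mean signal over the 6 arrays, 12920 of the 22180 genes were above this median. In whole tissue, fewer cells of a type cannot be told apart from less RNA per cell.

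No kainate receptor gene differed between the genotypes at an adjusted p of 0.05. Limma with Benjamini-Hochberg adjustment called 0 of the 7, where the background was 0.0% of the 22180 genes tested, and the lowest adjusted p among the 7 was 0.857. At an unadjusted p under 0.05 the count was also 0 of 7, beside 5.75% of all genes. The group means were higher in knockout for 5 genes and lower for 2, beside 54.9% of all genes higher in knockout. Grik3, 1 of the 5, turned to lower with quantile normalization. The median difference was 0.07 over the 7 genes and 0.01 over all genes. The 95% intervals of the 7 differences spanned -0.27 to 0.32 in all. On the linear scale the knockout-to-wild-type ratios permitted by these intervals ran from 0.830 to 1.25.

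**Figure D1:**
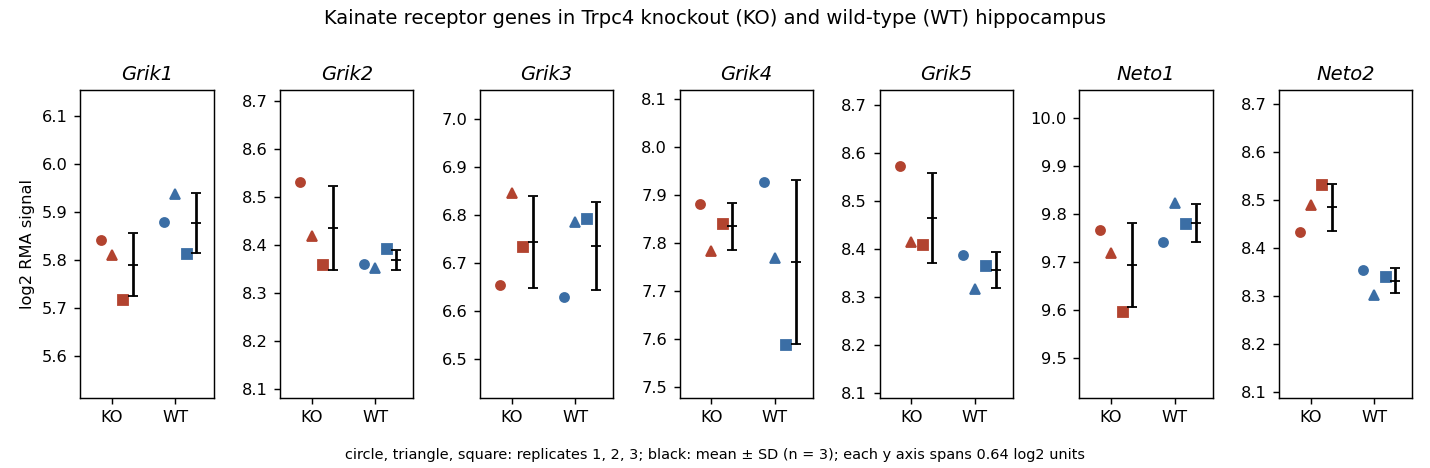
Log2 RMA signal of the 7 genes in each sample, knockout (KO) left of wild type (WT), with symbols for the replicate numbers and black bars for the mean ± SD (n = 3 each). Every axis spans the same number of log2 units but is centred on its own gene. The KO and WT points separate for Grik5 and Neto2 and overlap for the other 5 genes.

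Among the subunits that can form channels alone, Grik2 showed the tightest wild-type values. Its signal was 8.53, 8.42 and 8.36 in knockout replicates 1 to 3 and 8.36, 8.35 and 8.39 in wild-type replicates 1 to 3. The groups overlapped, with knockout replicate 1 above every other sample and the remaining 5 samples close together. The mean was 8.44 ± 0.09 in knockout and 8.37 ± 0.02 in wild type (SD, n = 3 each). The difference of 0.07 had a 95% interval of -0.11 to 0.25 and a limma adjusted p of 0.941. Without knockout replicate 1 it was 0.02, and without knockout replicate 3 it was 0.11. GluK2 is a principal pore-forming subunit of hippocampal pyramidal cells and granule cells.

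Grik1, known in the hippocampus mainly from interneurons, had 5.84, 5.81 and 5.72 in knockout replicates 1 to 3, against 5.88, 5.94 and 5.81 in wild-type replicates 1 to 3. The ranges overlapped, the lowest sample being a knockout and the highest a wild type. The means were 5.79 ± 0.07 in knockout and 5.88 ± 0.06 in wild type (SD, n = 3 each). This gave a difference of -0.09 (interval -0.27 to 0.09, limma adjusted p 0.918), or a knockout signal of 94.2% of wild type. Without knockout replicate 3 the difference was -0.05. Interneuron markers were lower in knockout for 13 of 17 genes, with 0 called and a median of -0.08. Their mean deviation per sample ranged from -0.05 to -0.03 in knockout and from -0.02 to 0.12 in wild type. Wild-type replicate 2 was the highest sample for both Grik1 and that list. The lowest sample differed, being knockout replicate 3 for Grik1 and knockout replicate 2 for the list. The part of interneuron content in the Grik1 values was not tested.

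Grik3, whose product responds only to high glutamate concentrations, was the member closest to no difference. It had 6.65, 6.85 and 6.73 in knockout replicates 1 to 3 and 6.63, 6.79 and 6.79 in wild-type replicates 1 to 3. Replicate 1 was the lowest sample of its genotype in both groups, and the groups covered nearly the same range. The difference was 0.01 with an interval of -0.19 to 0.21 and a limma adjusted p of 0.996. It was -0.04 without wild-type replicate 1 or without knockout replicate 2, and 0.05 without knockout replicate 1.

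Of the high-affinity subunits, Grik5 had separate groups, with the knockout samples above the wild-type ones, but did not pass the test. Its signal was 8.57, 8.41 and 8.41 in knockout replicates 1 to 3, against 8.39, 8.32 and 8.36 in wild-type replicates 1 to 3. Knockout replicate 1 stood above the rest, while the other knockout samples lay just above wild-type replicate 1. The mean was 8.47 ± 0.09 in knockout and 8.36 ± 0.04 in wild type (SD, n = 3 each). The difference was 0.11, with an interval of -0.08 to 0.29 and a limma adjusted p of 0.900. Without knockout replicate 1 it was 0.06. After centring each array on its median the Grik5 groups overlapped.

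Grik4, a gene known for strong expression in CA3 pyramidal cells, varied most among wild-type samples. It had 7.88, 7.78 and 7.84 in knockout replicates 1 to 3, which lay inside the range of wild-type replicates 1 to 3 at 7.93, 7.77 and 7.59. The mean was 7.84 ± 0.05 in knockout and 7.76 ± 0.17 in wild type (SD, n = 3 each). Its difference of 0.07 had the widest interval of the 7 genes, from -0.16 to 0.31, and a limma adjusted p of 0.946. Wild-type replicate 3 decided the direction. Without it the difference was -0.01, and without wild-type replicate 1 it was 0.16. The list of CA3 markers, which does not hold Grik4, was also lowest in wild-type replicate 3. The highest sample differed, being wild-type replicate 1 for Grik4 and knockout replicate 1 for the list. The mean deviation of the list per sample ranged from -0.05 to 0.08 in knockout and from -0.08 to 0.05 in wild type. In that list 8 of 13 genes were higher and 5 lower in knockout, with 0 called, a median of 0.03 and a mean of -0.01. At an unadjusted p under 0.05 there were 3 of 13, with 1 higher and 2 lower, beside 5.75% of all genes. Groups did not overlap for 3 of 13, again 1 higher and 2 lower, beside 10.9% of all genes. The part of CA3 content in the Grik4 values was not tested.

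The NETO genes had differences of opposite sign, and neither passed the test. Neto2 had 8.43, 8.49 and 8.53 in knockout replicates 1 to 3, against 8.35, 8.30 and 8.34 in wild-type replicates 1 to 3. Every knockout sample exceeded every wild-type sample, and both groups were narrow. The mean was 8.48 ± 0.05 in knockout and 8.33 ± 0.03 in wild type (SD, n = 3 each). At 0.15 this was the largest difference of the 7 genes, with a standard error of 0.07 and an interval of -0.01 to 0.32, so that the knockout signal was 111% of wild type. It did not pass the test, at a limma p of 0.0644 before adjustment and 0.857 after it. The exact two-sided permutation p was 0.1, which is the minimum for this design. The difference was 0.13 when knockout replicate 3 was left out and 0.18 when knockout replicate 1 was, the extremes over single samples. Across the arrays, 22.4% of all genes had a larger difference in either direction.

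Neto1, the family member best known from the mossy fibre synapse, had 9.77, 9.72 and 9.60 in knockout replicates 1 to 3. Wild-type replicates 1 to 3 had 9.74, 9.82 and 9.78. The groups overlapped through knockout replicate 1, and knockout replicate 3 was the lowest sample. The mean was 9.69 ± 0.09 in knockout and 9.78 ± 0.04 in wild type (SD, n = 3 each). The difference was -0.09 (interval -0.27 to 0.10, limma adjusted p 0.921), and -0.04 without knockout replicate 3.

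The 2 genes with separate groups, Grik5 and Neto2, were both higher in knockout. Groups that did not overlap, higher in knockout, were found for 6.41% of all genes. In the other direction they were found for 0 of the 7 and for 4.45% of all genes, which makes 10.9% in either direction. With 7 genes, a count of 2 rests on few samples and few genes. The count became 1 after median centring, with Neto2 alone, where 10.7% of all genes had separate groups. With a sample left out, groups separate more easily. Without knockout replicate 1 the count was 4, of which Grik1 and Neto1 were lower in knockout, beside 20.4% of all genes. Without wild-type replicate 1 it was also 4, with Grik4 higher and Neto1 lower beside Grik5 and Neto2, against 23.7% of all genes.

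**Figure D2:**
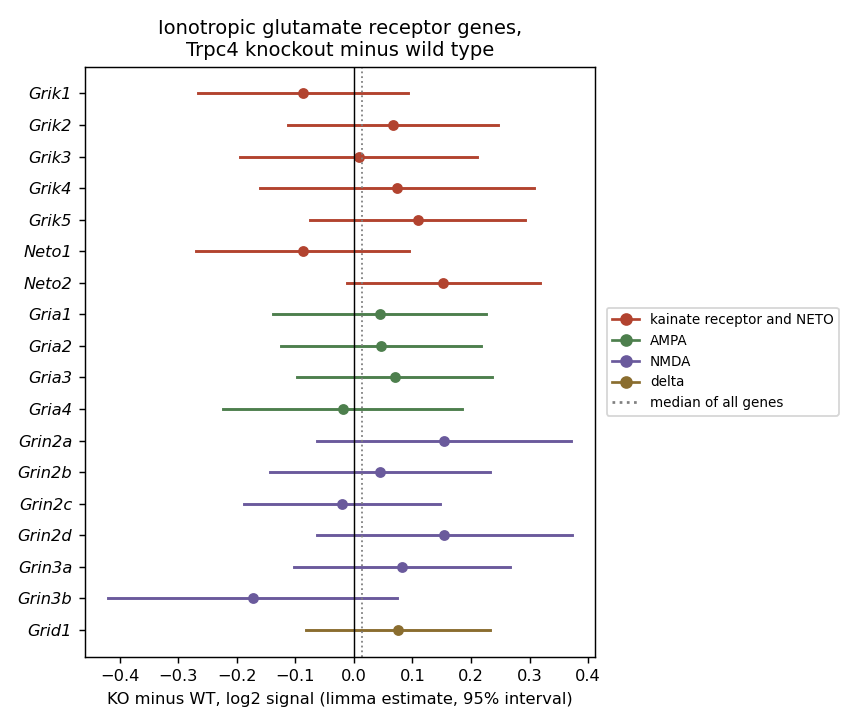
Knockout minus wild type on the log2 scale with 95% limma intervals for the 7 kainate receptor and NETO genes and for 11 other ionotropic glutamate receptor genes, with a dotted line at the median of all genes (0.01). Every interval includes zero. Neto2 lies highest of the 7 at 0.15, and Grik1 and Neto1 lowest at -0.09.

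The standard errors of the 7 differences ran from 0.0708 for Neto2 to 0.1001 for Grik4, against a median of 0.0997 over all genes. A larger standard error was found for 96.6% of all genes than for Neto2, for 68.3% than for Grik3 and for 49.5% than for Grik4. All 7 had mean signals above the median of all values, as did 12920 of the 22180 genes. In wild type they lay from 1.14 above it for Grik1 to 5.05 above it for Neto1. These distances belong to different probe sets and do not rank the transcripts by abundance.

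By sample, the 7 genes did not move together. Knockout replicate 1 lay above the gene's own mean for 6 of 7 genes, knockout replicate 2 for 4 and knockout replicate 3 for 2. In wild-type replicates 1 to 3 the counts were 3, 3 and 2. Averaged over the 7 genes, the deviation from the gene mean was 0.05, 0.02 and -0.02 in knockout replicates 1 to 3, against -0.01, -0.01 and -0.04 in wild-type replicates 1 to 3. The range of that average within knockout was wider than its difference between genotypes of 0.03. Pan-neuronal markers averaged 0.09, 0.0019 and -0.03 in knockout replicates 1 to 3 and -0.03, -0.01 and -0.03 in wild-type replicates 1 to 3. Knockout replicate 1 was thus the highest sample for the neuronal list as well as for the 7 genes. The part of neuronal content in their values was not tested.

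Oligodendrocyte markers were lower in knockout for 18 of 18 genes, with a median of -0.40 and 0 called. At an unadjusted p under 0.05 there were 13 of 18, beside 5.75% of all genes, and groups did not overlap for 12 of 18, beside 10.9% of all genes. The genes share the same 6 samples and are not independent of each other. Their mean deviation was -0.18, -0.48 and 0.07 in knockout replicates 1 to 3, against 0.20, 0.16 and 0.21 in wild-type replicates 1 to 3. Knockout replicate 2 was the lowest of the 6 for this list. Without it, the differences of Neto2 and Grik5 were 0.15 and 0.13. The other knockout samples were still below every wild-type sample for this list, so leaving out 1 sample does not remove the imbalance. The part of oligodendrocyte content in the values of the kainate receptor genes was not tested. Dentate granule cell markers were higher for 12 of 14 genes (median 0.09, 0 called), and their mean deviation ranged from -0.03 to 0.12 in knockout and from -0.16 to 0.08 in wild type. CA1 markers were higher for 7 of 10 genes, with a median of 0.04 and 0 called. Of these 10, 2 had an unadjusted p under 0.05, with 1 higher and 1 lower. Their groups did not overlap for 3 of 10, with 2 higher and 1 lower. Among 6 further lists the medians ran from -0.16 for choroid plexus to 0.03 for oligodendrocyte precursors, again with 0 called. Those of astrocytes, microglia, endothelium and neighbouring brain regions lay between.

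**Figure D3:**
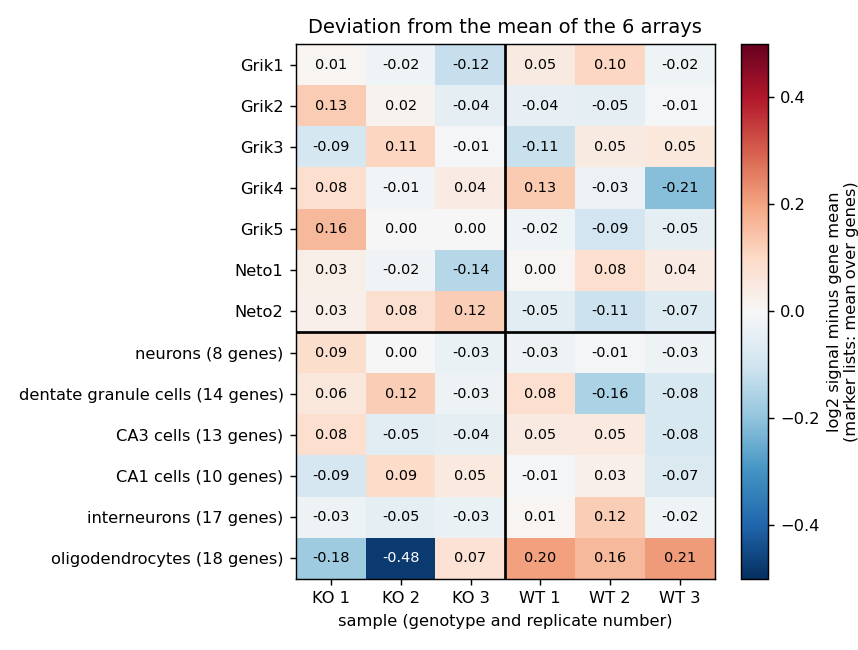
Deviation of each sample from the mean of the 6 arrays on the log2 scale, for the 7 genes (upper rows) and for the average of 6 marker lists (lower rows), with knockout samples left of wild type. Neto2 is above its mean in the 3 knockout samples and below it in the 3 wild-type samples, and the oligodendrocyte list has the lowest value of the map, -0.48 in knockout replicate 2.

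The other ionotropic glutamate receptor subunits gave differences of similar size. Of 11 measured AMPA, NMDA and delta receptor genes, 8 were higher and 3 lower in knockout, with 0 called, 0 at an unadjusted p under 0.05 and a median of 0.05. All 4 AMPA receptor genes, Gria1 to Gria4, lay between -0.02 and 0.07. Grin2a, an NMDA receptor subunit gene prominent in adult hippocampus, differed by 0.15 (interval -0.06 to 0.37, limma adjusted p 0.883), and by 0.24 without wild-type replicate 1. That sample, at 9.44, lay among the knockout samples (9.43, 9.46 and 9.37). Wild-type replicates 2 and 3 were both at 9.18, and leaving out either makes the Grin2a difference smaller. Grin2d, an NMDA receptor subunit gene typical of interneurons, also differed by 0.15 (interval -0.06 to 0.37). It stood at 0.23 without knockout replicate 1 and at 0.10 without knockout replicate 2. Grid1, at 0.08, was the only one of the 11 whose groups did not overlap, a share near the 10.9% of all genes.

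Genes for proteins reported to bind, move, edit or phosphorylate kainate receptors were compared in the same fit. Of 23 measured, 14 were higher and 9 lower in knockout, with 0 called and a median of 0.01. At an unadjusted p under 0.05 there was 1 of 23, C1ql2, a share below the 5.75% of all genes. Groups did not overlap for 5 of 23, with 3 higher and 2 lower, beside 10.9% of all genes. The product of C1ql2 is secreted by mossy fibres and clusters kainate receptors at their synapse. C1ql2 had 8.38, 8.37 and 8.10 in knockout replicates 1 to 3, against 8.12, 8.07 and 7.84 in wild-type replicates 1 to 3. The groups overlapped through knockout replicate 3. The difference was 0.28 (interval 0.01 to 0.54, limma unadjusted p 0.0424, adjusted p 0.853), and 0.19 without wild-type replicate 3. C1ql2 is itself a granule cell gene, and the dentate marker values above stand beside it. The part of granule cell content in the C1ql2 values was not tested.

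Ywhaq, a 14-3-3 protein gene, was lower in all 3 knockout samples, at 11.28, 11.18 and 11.13 against 11.33, 11.37 and 11.38 in wild type. Its difference was -0.16 with an interval of -0.34 to 0.01 and a limma adjusted p of 0.857. Dlg3, which encodes the scaffold SAP102, differed by 0.12 (0.07 without wild-type replicate 2). The cadherin gene Cdh2 differed by 0.09 with its brightest probe set and by 0.01 with the mean of its probe sets. The RNA-editing enzyme genes Adar and Adarb1, whose products recode kainate receptor transcripts, differed by -0.01 and 0.0026. The intervals were -0.18 to 0.16 for Adar and -0.20 to 0.21 for Adarb1.

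The genes whose profile over the 6 arrays was most like that of Neto2 were sought among 12919 genes with a mean signal above the median. Likeness was the root mean square difference between deviations from each gene's own mean. Fam50a came closest at 0.0197 log2 units, then Caprin1 at 0.0235 and Qtrt1 at 0.0246, where the median over the genes compared was 0.122. Their knockout-minus-wild-type differences were 0.13, 0.14 and 0.18. A like profile includes the difference between genotypes, so values near that of Neto2 follow from the search. Among the kainate receptor genes Grik5 was nearest to Neto2, at 0.0841, and Neto1 farthest, at 0.148. With 6 arrays and so many genes, close profiles are easily found, and these values are a description.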

How the data were processed

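The authors deposited 1 table of log2 signals for 41345 probe sets. The submitters' processing notes name Affymetrix Power Tools and RMA, and no version or genome build is given in the sources used here. Per the labels' protocols, total RNA was extracted with Trizol and biotin-labelled as sense cDNA. Gene names came from a platform annotation that may be outdated: 23521 named 1 gene, 1814 several and 16010 none. The probe set of the highest mean stood for its gene, and 21994 of the 22180 genes had a RefSeq entry by gene number. Limma 3.58.1 (lmFit, eBayes) in R 4.3.3 compared knockout with wild type, with no other term, and Benjamini-Hochberg adjustment ran over all genes at 0.05. Intervals are 95% limma intervals. The fit was tested on simulated data. Plots used Python 3.11.15 and matplotlib 3.10.9. Named genes were the 7, Trpc4, the 2 other receptor subunits and 4 partner genes of smallest unadjusted p, and the 3 profiles most like the member of smallest p. Grid1, the editing enzymes and the range of the AMPA genes were named after their values were seen. Members, lists and rules were chosen with earlier results of these data known. Precision is limited by the number of arrays, and raw scans were not used here. Alternative settings left out each sample, used the replicate number as a block, weighted the arrays, dropped dim probe sets, averaged a gene's probe sets or tested all of them. Others were quantile normalization, median centring, and a variance fitted robustly with a trend. No member had a further probe set naming it alone. Same-numbered samples of the groups were checked for pairing and were not treated as pairs.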

Additional observations from a re-analysis of the deposited data

How the results depend on the processing

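No kainate receptor gene passed the adjusted threshold under any of the 13 alternatives run for them, and 5 of the 7 genes kept their direction under all 13. Grik3 turned with quantile normalization (-0.0034), and over single samples left out it lay between -0.0448 (wild-type replicate 1) and 0.0534 (knockout replicate 1), also turning without knockout replicate 2 (-0.0426). Grik4 turned without wild-type replicate 3 (-0.0134) and was 0.157 without wild-type replicate 1. The cause was not tested. The count of 0 at an unadjusted p under 0.05 became 1, Neto2, with trend and robust variance (p 0.0152) and after dim probe sets were dropped (p 0.0392), and was 0 without any single sample. Groups that did not overlap numbered 1 with median centring and 2 to 4 without single samples, where 19.3% to 23.7% of all genes had such groups. The median difference of 0.07 was 0.0358 without wild-type replicate 3 and 0.0758 without knockout replicate 2, the extremes over single samples. With quantile normalization the median difference was 0.0495, and the difference of each of the 7 genes was lower than without it. Over all genes the number called was 1 when the variance had a robust trend, namely Trpc4 (adjusted p 0.0378), and was 0 to 1 without single samples. An unadjusted p under 0.05 was found for 1276 of the 22180 genes (5.75%). With all probe sets tested it was found for 2128 of 41345, a lower share that counts probe sets and not genes. With the replicate number as a block, Neto2 differed by 0.15 with an adjusted p of 0.838 and 0 genes were called. The deviations of same-numbered samples correlated at 0.0670, 0.0348 and -0.0038, and knockout replicate 3 did not correlate best with its own number. Groups of 3 could not be searched for single outlying samples.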
